A study of Mus musculus with 9 samples.

Results

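Integrins and laminins were followed gene by gene in fibroblasts grown from mouse embryos (MEFs, for mouse embryonic fibroblasts), in 3 cell lines. The genes were chosen by symbol in the annotation of the authors' deposited table: every integrin alpha subunit (symbols beginning with Itga), every integrin beta subunit written as Itgb with a single digit, and every laminin chain written as Lama, Lamb or Lamc with a single digit. This gave 37 of 24647 genes with a symbol, of which 18 were integrin alpha subunits, 8 were integrin beta subunits and 11 were laminin chains. They lay on 39 of the 41345 transcript clusters, the units into which the array gathers the probes of a gene. Itgav and Itgb4 had 2 clusters each, and as for every other gene the cluster with the higher mean over the 9 arrays was used.

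The 3 groups were human APE1, mouse Ape1 and vector control, with 3 culture dishes and 3 arrays each. The labels give the cells of all groups as male fibroblasts of a strain isogenic to C56BL/6. The series' design text gives their genotype as mApe1-/- with a human transgene (hAPE1TG) and describes an Ape1 level that is extremely low. A note in the authors' deposited table puts the APE1 level of the vector control line, against that of the other lines, at about 1 to 500. APE1 is a DNA repair enzyme that also acts on transcription factors, and the stated question of the study was how the human and the mouse protein regulate groups of genes. Apex1, the mouse gene of this enzyme, is not analysed here. The sources used here give neither the making of the lines nor the promoters that drive the transgene and the added proteins. Each group is 1 cell line, so line and group cannot be told apart, and every p-value measures only the spread between dishes of a line.

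Integrins are cell-surface receptors built from an alpha and a beta subunit, which bind proteins outside the cell and connect them, through adaptor proteins at focal adhesions, to the actin cytoskeleton. Laminins are secreted proteins built from an alpha, a beta and a gamma chain, and they form the sheet of a basement membrane, where integrins and other receptors hold them. Fibroblasts use integrins to grip fibronectin, collagen and other matrix, and the alpha subunit largely sets which ligand a receptor binds.

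Values are log2 RMA expression values, so a difference of 1 is a doubling. The arrays correlated at r = 0.990 to 0.993 within groups and at 0.977 to 0.987 between them. The 25th percentile of an array lay between 4.27 and 4.36 and its median between 5.64 and 5.75, and 18 of the 37 genes had a mean over the 9 arrays above every array median. Of 12 fibroblast markers, 11 were above every array median, with Vim at 13.04 in human APE1, 13.19 in mouse Ape1 and 12.85 in vector control, while Lum lay below the 25th percentile in every group. Of all genes above every array median, 27.1% were called in human APE1 and 33.5% in mouse Ape1, each against vector control. The fibroblast markers themselves moved: 0 rose and 7 fell in human APE1 (58.3%), and 3 rose and 7 fell in mouse Ape1 (83.3%), each against vector control. Dcn fell most, with differences of -3.06 in human APE1 and -3.29 in mouse Ape1, while Vim rose in mouse Ape1 (0.34). The log2 of the summed linear level of the 12 markers was 13.75 to 13.85 on the human APE1 arrays, 14.02 to 14.08 on the mouse Ape1 arrays and 14.03 to 14.08 on the vector control arrays. The brightest markers weigh most in this sum. The part of these marker differences in the results below was not tested. In bulk RNA, fewer cells of a kind and less RNA per cell cannot be told apart.

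Itga3, a laminin-receptor subunit, rose in both APE1 lines and rose most in mouse Ape1, at 1.74 ± 0.06 (difference ± SE, n = 3 against 3) above vector control. Lama4, a laminin alpha chain, fell by 1.72 ± 0.15 in human APE1 and by 1.74 ± 0.15 in mouse Ape1, to levels under the 25th percentile in both lines. Of the laminin beta chains in mouse Ape1, Lamb2 fell by 0.74 ± 0.08, and Lamb1 rose by 0.57 ± 0.07. The Lamb1 rise no longer passed with its chromosome's median of expressed genes subtracted, chosen after seeing the data (0.17, adjusted p = 0.127, limma). The same rise still passed with the chromosome median over all clusters subtracted, as planned (0.50, adjusted p = 0.00514, limma).

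A gene was said to rise or fall where its adjusted p in limma (moderated test over all 41345 transcript clusters, Benjamini-Hochberg adjustment) was under 0.05. In human APE1 against vector control, 3 of the 37 genes rose and 4 fell, or 18.9%, and of all genes 15.7% were called, with 6.58% higher and 9.13% lower. In mouse Ape1 against vector control, 6 rose and 5 fell, or 29.7%, with 19.9% of all genes called, 9.75% higher and 10.2% lower. In human APE1 against mouse Ape1, 4 were higher and 6 lower, or 27.0%, with 16.6% of all genes called, 7.17% higher and 9.39% lower. In the test of all 3 groups together 14 of the 37 genes passed, or 37.8%, against 26.1% of all genes. Of the 18 subunit genes with a mean above every array median 13 passed it, or 72.2%, against 44.6% of all genes that bright. The values of the compared groups did not overlap for 14, 14 and 13 of the 37 genes in these 3 comparisons in turn, and for 32.7%, 37.9% and 34.9% of all genes. The median difference of the 37 genes was -0.01, -0.06 and 0.05, and that of all genes was 0.00, -0.03 and 0.03. Whether these shares differ from those of all genes was not tested, and the results below are those of single subunits. Both comparisons against vector control share the same 3 vector control arrays.

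**Figure D1:**
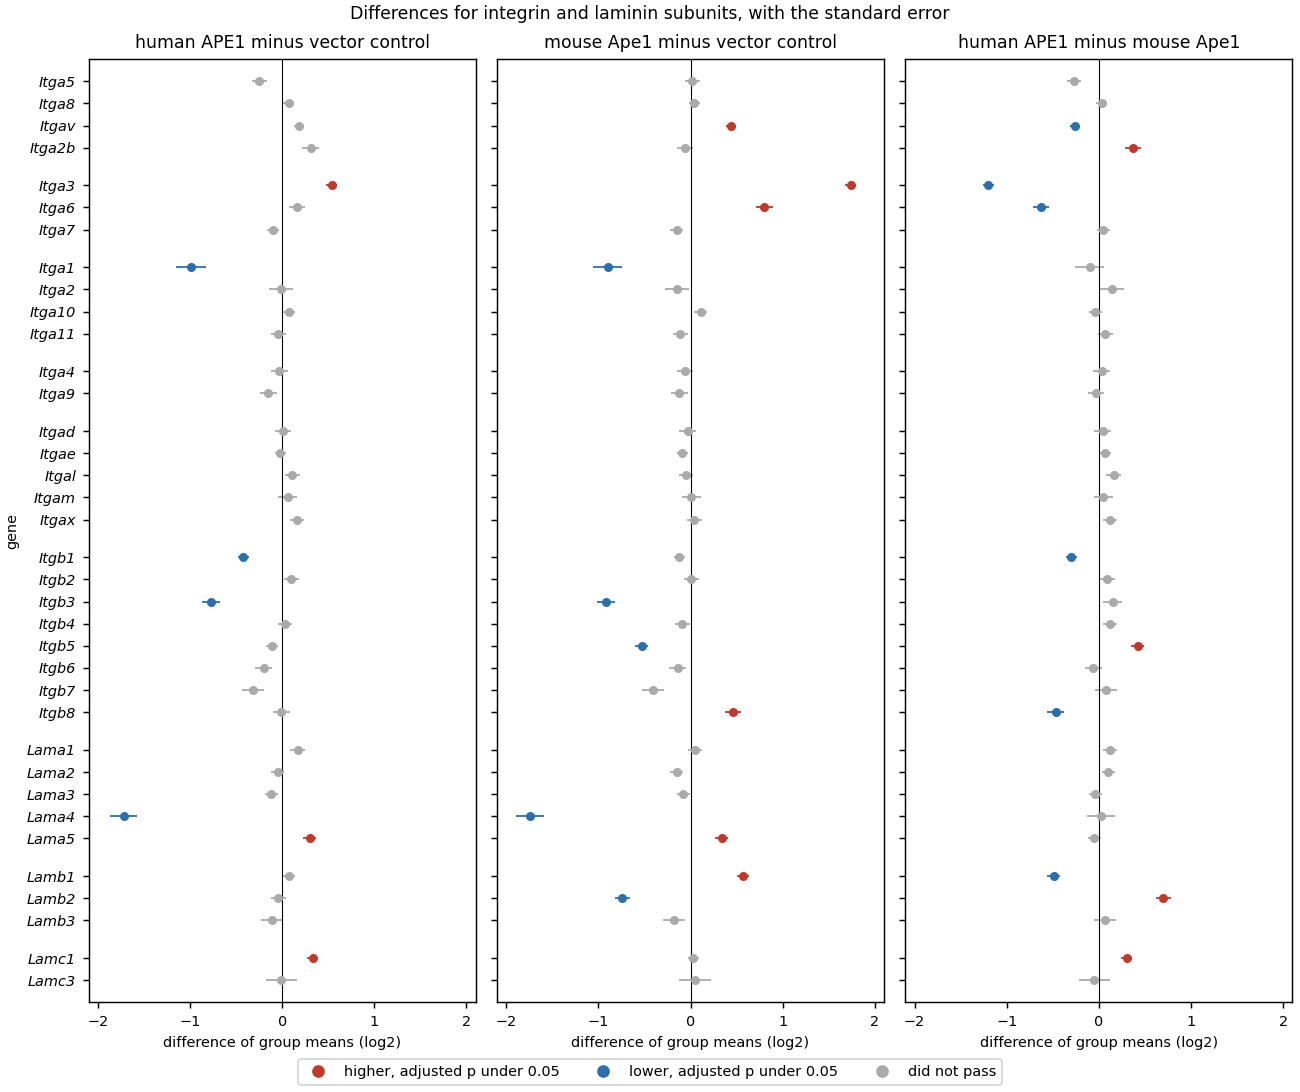
Difference of group means on the log2 scale (horizontal axis) for the subunit genes reported, ordered by role down the page, in human APE1 against vector control (left), mouse Ape1 against vector control (middle) and human APE1 against mouse Ape1 (right). Points are differences and bars their standard errors (n = 3 arrays a group), red for higher and blue for lower at an adjusted p under 0.05, and grey otherwise. Itga3 lies farthest to the right in the middle panel at 1.74, and Lama4 farthest to the left in the left and middle panels at -1.72 and -1.74.

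The laminin-binding alpha subunits Itga3, Itga6 and Itga7 included the largest rise. Itga3 pairs with Itgb1 into a receptor for laminins of basement membranes. Its level was 9.81, 9.80 and 9.81 in human APE1, 11.00, 10.96 and 11.05 in mouse Ape1, and 9.26, 9.20 and 9.33 in vector control. The 3 lines were fully separate, with mouse Ape1 highest, human APE1 between and vector control lowest. Against vector control Itga3 was 1.46-fold higher in human APE1 (log2 difference 0.54 ± 0.06, adjusted p = 0.000758) and 3.35-fold higher in mouse Ape1 (1.74 ± 0.06, adjusted p = 1.8e-06). Human APE1 minus mouse Ape1 was -1.20 ± 0.06 (adjusted p = 1.58e-05).

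Itga6, which pairs with Itgb1 or with Itgb4 into further laminin receptors, had levels of 7.99, 8.02 and 8.07 in human APE1, 8.74, 8.71 and 8.52 in mouse Ape1, and 7.80, 8.01 and 7.79 in vector control. Only mouse Ape1 stood apart, since the human APE1 and vector control values overlapped. Mouse Ape1 was 1.74-fold above vector control (log2 difference 0.80 ± 0.09, adjusted p = 0.000683), and human APE1 was lower than mouse Ape1 (-0.63 ± 0.09, adjusted p = 0.00222). The difference of human APE1 from vector control was 0.16 ± 0.09 and did not pass (adjusted p = 0.308). Itga7, best known as the laminin receptor subunit of muscle, averaged 6.48 in human APE1, 6.44 in mouse Ape1 and 6.58 in vector control, and passed in no comparison.

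RefSeq (GRCm38.p6) lists a promoter window of 300 bases, most of it upstream of a gene's start, for 23 of the 37 genes. The windows of Itga3 are shown because this gene changed most among the receptors and has 2 listed starts. Capitals mark the AP-1 site TGANTCA and the GC box GGGCGG, searched on both strands. The AP-1 site, the binding motif of Fos and Jun, was chosen because APE1 is known as an activator of these factors.
Itga3 start A, chr11:95076665-95076964, minus strand: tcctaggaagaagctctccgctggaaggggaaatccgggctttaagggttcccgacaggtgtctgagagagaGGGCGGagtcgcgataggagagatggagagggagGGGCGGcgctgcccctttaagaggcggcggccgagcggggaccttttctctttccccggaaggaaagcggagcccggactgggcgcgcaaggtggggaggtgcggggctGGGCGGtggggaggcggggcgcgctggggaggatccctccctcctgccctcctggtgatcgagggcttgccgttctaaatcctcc
Itga3 start B, chr11:95069149-95069448, minus strand: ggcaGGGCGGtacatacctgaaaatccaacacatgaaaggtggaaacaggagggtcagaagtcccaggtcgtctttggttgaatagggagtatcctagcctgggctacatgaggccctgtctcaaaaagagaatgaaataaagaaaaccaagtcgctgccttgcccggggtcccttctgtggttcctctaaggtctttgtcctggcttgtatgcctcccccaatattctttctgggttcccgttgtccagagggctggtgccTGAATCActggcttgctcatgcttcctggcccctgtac
Start A held 3 GC boxes and no AP-1 site, with 66.7% G and C. Start B, the one farther along the gene, held 1 GC box and 1 AP-1 site, with 52.3% G and C. Among all 32851 windows of this length 7.81% held the AP-1 site and 35.7% the GC box. Of the 26 windows of the subunit genes, 3 held the AP-1 site and 12 the GC box. Counted by gene, with any window of a gene enough, 3 of the 23 held the AP-1 site (Itga3, Itga9 and Itgax) and 11 the GC box. Of the 10 genes with a window that passed the 3-group test, 1 held the AP-1 site and 6 the GC box. These matches describe the letters only, and binding was not measured.

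The alpha subunits that bind proteins with an RGD motif, as fibronectin and vitronectin have, moved little. Itgav, which forms vitronectin and fibronectin receptors with several beta subunits, averaged 11.35 ± 0.040 in human APE1, 11.62 ± 0.055 in mouse Ape1 and 11.17 ± 0.010 in vector control (SD, n = 3). The lines did not overlap and kept the order seen for Itga3. Itgav rose 1.36-fold in mouse Ape1 (log2 difference 0.44 ± 0.05, adjusted p = 0.00125) and was lower in human APE1 than in mouse Ape1 (difference -0.26 ± 0.05, adjusted p = 0.0154). Human APE1 exceeded vector control by 0.18 ± 0.05, which did not pass (adjusted p = 0.0795). The second, dimmer cluster of Itgav averaged 5.02 over the 9 arrays and passed in no comparison, and with both clusters averaged the difference of human APE1 from mouse Ape1 was -0.06 (adjusted p = 0.687). Without the first mouse Ape1 array that difference also missed the threshold (adjusted p = 0.0596).

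Itga5, the classical fibronectin receptor subunit, averaged 9.84 ± 0.14 in human APE1, 10.11 ± 0.029 in mouse Ape1 and 10.09 ± 0.080 in vector control. All human APE1 values lay below those of the other lines, but neither difference passed (-0.25 against vector control, adjusted p = 0.0952, and -0.27 against mouse Ape1, adjusted p = 0.0678). Itga8, a receptor subunit for nephronectin, averaged between 4.60 and 4.67 in the 3 lines and passed in no comparison.

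Itga2b, the alpha subunit of the platelet fibrinogen receptor, averaged 6.97 ± 0.16 in human APE1, 6.60 ± 0.038 in mouse Ape1 and 6.66 ± 0.11 in vector control. It was higher in human APE1 than in mouse Ape1 (difference 0.37 ± 0.09, adjusted p = 0.0374). That call failed when any of 7 of the 9 arrays was left out (adjusted p up to 0.109) and in 4 of the 10 other alternatives. Of 5 platelet and megakaryocyte markers, Ppbp alone passed, lower in mouse Ape1 than in vector control (difference -0.30) and likewise lower than in human APE1. The log2 of their summed level was 7.65 to 7.69 in human APE1, 7.53 to 7.55 in mouse Ape1 and 7.63 to 7.76 in vector control, and its part in the Itga2b difference was not tested.

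Among the 4 collagen-binding alpha subunits Itga1 alone passed. It pairs with Itgb1 into a receptor for basement membrane and other collagens. Its level was 5.47, 5.55 and 5.61 in human APE1, 5.37, 5.81 and 5.75 in mouse Ape1, and 6.63, 6.77 and 6.22 in vector control. Both APE1 lines lay below all vector control arrays, and they overlapped with each other. Itga1 fell 1.99-fold in human APE1 (log2 difference -0.99 ± 0.16, adjusted p = 0.00603) and 1.86-fold in mouse Ape1 (-0.90 ± 0.16, adjusted p = 0.00729). The APE1 lines differed by -0.10 ± 0.16, human APE1 minus mouse Ape1 (adjusted p = 0.793). Their means of 5.55 and 5.64 were near the array medians, so the size of the fall is less certain than for brighter genes. Itga2, the collagen receptor subunit of platelets and epithelia, averaged 4.75 to 4.90, Itga10, of cartilage, 5.69 to 5.80, and Itga11, a fibroblast receptor for fibrillar collagen, 5.42 to 5.53.

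Itga4 and Itga9, which bind cell-adhesion and matrix proteins such as VCAM-1 and tenascin, passed in no comparison, and neither did the 5 leukocyte alpha subunits Itgad, Itgae, Itgal, Itgam and Itgax. The group means of these 7 genes lay between 3.92 (Itga4 in mouse Ape1) and 5.82 (Itgal in human APE1). Itga4 and Itgad were below the 25th percentile of every array. Of 12 leukocyte markers 0 passed in any comparison. Ptprc, the pan-leukocyte gene, averaged 3.47 in human APE1, 3.40 in mouse Ape1 and 3.57 in vector control, below the 25th percentile. Of the 12 markers, 4 had means below every array's 25th percentile and 2 had means above every array median. These 2 were Cd68, at 7.75, 7.71 and 7.69 in human APE1, mouse Ape1 and vector control, and Fcer1g, at 6.63, 6.38 and 6.37. The summed level of the 12 markers on the log2 scale was 9.18 to 9.21 in human APE1, 9.10 to 9.13 in mouse Ape1 and 9.12 to 9.16 in vector control.

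Of the 8 beta subunits 4 passed the 3-group test, or 50.0%, and they did not move together. That test called 26.1% of all genes and 44.6% of genes with a mean above every array median, and 5 of the 8 beta subunits were that bright. Itgb1, the partner of most alpha subunits above, had levels of 11.82, 11.73 and 11.86 in human APE1, 12.12, 12.09 and 12.10 in mouse Ape1, and 12.29, 12.21 and 12.17 in vector control. The 3 lines were separate, with human APE1 lowest. It fell 1.34-fold in human APE1 against vector control (log2 difference -0.42 ± 0.06, adjusted p = 0.00344). The difference of -0.12 ± 0.06 in mouse Ape1 against vector control did not pass (adjusted p = 0.238). Human APE1 was also lower than mouse Ape1 (-0.30 ± 0.06, adjusted p = 0.0141), a call lost without the first mouse Ape1 array (adjusted p = 0.0524), with array medians subtracted (adjusted p = 0.0554) and with chromosome medians over all clusters subtracted (-0.20, adjusted p = 0.108). In mouse Ape1, then, Itga3 and Itga6 rose beside a common beta subunit whose difference did not pass.

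Itgb3, which pairs with Itgav in the vitronectin receptor and with Itga2b on platelets, was at 5.63, 5.51 and 5.71 in human APE1, 5.67, 5.32 and 5.42 in mouse Ape1, and 6.44, 6.38 and 6.34 in vector control. Both APE1 lines lay below every vector control array and overlapped with each other, as for Itga1. The falls were 1.70-fold in human APE1 (log2 difference -0.77 ± 0.10, adjusted p = 0.00198) and 1.89-fold in mouse Ape1 (-0.92 ± 0.10, adjusted p = 0.000634). Between the APE1 lines the difference was 0.15 ± 0.10, human APE1 minus mouse Ape1 (adjusted p = 0.439). As for Itga1, the low means of 5.62 and 5.47 leave the size of the falls less certain.

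Itgb5, another partner of Itgav in vitronectin receptors, was at 9.61, 9.55 and 9.76 in human APE1, 9.19, 9.23 and 9.23 in mouse Ape1, and 9.74, 9.71 and 9.79 in vector control. Mouse Ape1 lay below all arrays of the other lines, and human APE1 overlapped with vector control. Itgb5 fell 1.44-fold in mouse Ape1 against vector control (log2 difference -0.53 ± 0.07, adjusted p = 0.0015) and was higher in human APE1 than in mouse Ape1 (0.42 ± 0.07, adjusted p = 0.00484). Its partner Itgav rose in mouse Ape1, so the alpha subunit and the beta subunits Itgb3 and Itgb5 changed in opposite directions there. Not every partner of Itgav fell, since Itgb8 rose in mouse Ape1 (0.46, adjusted p = 0.011, limma).

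Itgb8, which with Itgav activates latent TGF-beta, averaged 6.65 ± 0.11 in human APE1, 7.12 ± 0.12 in mouse Ape1 and 6.66 ± 0.10 in vector control. It rose in mouse Ape1 (difference 0.46 ± 0.09, adjusted p = 0.011) and was lower in human APE1 than in mouse Ape1 (-0.47 ± 0.09, adjusted p = 0.0115). It lies on chromosome 12, whose expressed genes as a whole were higher in mouse Ape1, as described with Lamb1. Itgb7, of leukocyte homing receptors, averaged 5.89 in human APE1, 5.80 in mouse Ape1 and 6.21 in vector control, with a difference of -0.41 ± 0.12 in mouse Ape1 against vector control that missed the threshold (adjusted p = 0.0536). Itgb2, the common leukocyte beta subunit, Itgb4, the hemidesmosome subunit, and Itgb6, of epithelia, had group means between 4.53 and 5.61 and passed in no comparison.

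**Figure D2:**
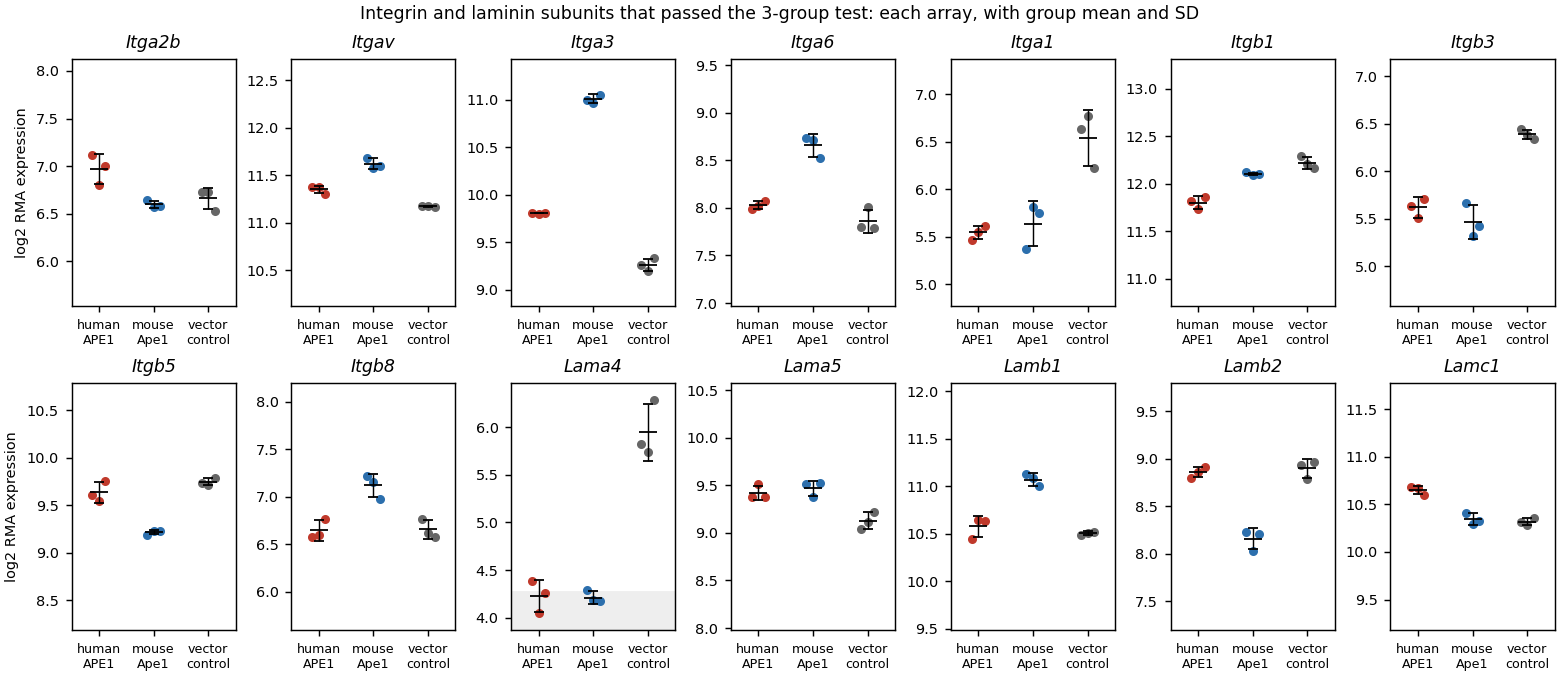
log2 RMA expression of the 14 genes that passed the 3-group test, on each array of human APE1 (red), mouse Ape1 (blue) and vector control (grey), with the group mean and SD as bars (n = 3). Every panel spans the same number of log2 units, so distances can be compared between panels, and the grey band lies below 4.27, the lowest 25th percentile of the 9 arrays. Itga3 separates the 3 lines, Lama4, Itga1 and Itgb3 separate vector control from both APE1 lines, and Lamb1 and Lamb2 separate mouse Ape1 from the rest.

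Of the 11 laminin chains 5 passed the 3-group test, or 45.5%, against 26.1% of all genes and 44.6% of genes above every array median. Only 5 of the 11 chains had a mean that bright. Lama4, the alpha chain of laminins in vessel walls and mesenchymal tissue, was at 4.38, 4.05 and 4.26 in human APE1, 4.29, 4.18 and 4.17 in mouse Ape1, and 5.82, 5.74 and 6.29 in vector control. Every vector control array was above every other array, and the APE1 lines overlapped. The log2 difference was -1.72 ± 0.15 in human APE1 (adjusted p = 0.000287) and -1.74 ± 0.15 in mouse Ape1 (adjusted p = 0.000205), while human APE1 minus mouse Ape1 was 0.02 ± 0.15 (adjusted p = 0.970). The means of 4.23 in human APE1 and 4.21 in mouse Ape1 were below the 25th percentile of their own arrays, and RMA compresses differences of such dim genes, so no fold is given.

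Lama5, the alpha chain most widespread in mature basement membranes and a ligand of the receptor with Itga3, averaged 9.42 ± 0.077 in human APE1, 9.47 ± 0.080 in mouse Ape1 and 9.13 ± 0.091 in vector control. Both APE1 lines were above all vector control arrays, with differences of 0.30 ± 0.07 in human APE1 (adjusted p = 0.039) and 0.34 ± 0.07 in mouse Ape1 (adjusted p = 0.0167). The call in human APE1 was lost without any of 7 of the 9 arrays (adjusted p = 0.059 to 0.126) and in 4 of the 10 other alternatives (up to 0.128), and the call in mouse Ape1 without any of 4 (0.0501 to 0.0631). The alpha chains Lama1, of the early embryo, Lama2, of muscle and nerve, and Lama3, of skin, had group means between 5.07 and 5.30 and passed in no comparison.

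Lamb1 and Lamb2, alternative beta chains of laminin, moved in opposite directions in mouse Ape1. Lamb1, the beta chain of most embryonic laminins, was at 10.45, 10.65 and 10.64 in human APE1, 11.13, 11.09 and 11.00 in mouse Ape1, and 10.49, 10.51 and 10.52 in vector control. Lamb2, the beta chain of mature kidney filters and of the nerve-muscle synapse, was at 8.80, 8.86 and 8.91 in human APE1, 8.23, 8.03 and 8.21 in mouse Ape1, and 8.93, 8.79 and 8.97 in vector control. For both genes mouse Ape1 was separate from the other lines, which overlapped. Lamb1 rose 1.48-fold in mouse Ape1 (log2 difference 0.57 ± 0.07, adjusted p = 0.0013), and Lamb2 fell 1.67-fold (-0.74 ± 0.08, adjusted p = 0.000651). Human APE1 minus mouse Ape1 was -0.49 ± 0.07 for Lamb1 (adjusted p = 0.00274) and 0.70 ± 0.08 for Lamb2 (adjusted p = 0.000894). Human APE1 against vector control gave 0.07 ± 0.07 for Lamb1 (adjusted p = 0.603) and -0.04 ± 0.08 for Lamb2 (adjusted p = 0.837). Lamb3, the beta chain of skin laminin, averaged 5.93, 5.86 and 6.05 in human APE1, mouse Ape1 and vector control, and passed in no comparison.

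The RefSeq promoter windows of this pair are shown because the genes moved apart, with the same motifs in capitals.
Lamb1, chr12:31265043-31265342, plus strand: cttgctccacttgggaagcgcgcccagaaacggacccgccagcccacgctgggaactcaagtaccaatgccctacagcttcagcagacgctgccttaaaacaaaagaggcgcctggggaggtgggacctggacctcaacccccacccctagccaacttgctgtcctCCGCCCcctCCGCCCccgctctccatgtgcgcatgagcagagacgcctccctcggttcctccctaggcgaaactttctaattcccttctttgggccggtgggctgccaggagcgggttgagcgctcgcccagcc
Lamb2, chr9:108479612-108479911, plus strand: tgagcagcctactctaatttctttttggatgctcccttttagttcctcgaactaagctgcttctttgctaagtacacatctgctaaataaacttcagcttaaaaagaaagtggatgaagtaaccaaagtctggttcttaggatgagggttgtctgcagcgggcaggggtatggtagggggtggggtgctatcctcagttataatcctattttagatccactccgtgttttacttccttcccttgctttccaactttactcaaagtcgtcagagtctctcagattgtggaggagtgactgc
The Lamb1 window held 2 GC boxes and 63.7% G and C, and the Lamb2 window held neither motif and 44% G and C.

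Lamc1, the gamma chain shared by most laminins, was at 10.68, 10.67 and 10.60 in human APE1, 10.41, 10.29 and 10.33 in mouse Ape1, and 10.31, 10.28 and 10.36 in vector control. Human APE1 was separate from the other lines, which overlapped. It rose 1.26-fold in human APE1 (log2 difference 0.33 ± 0.06, adjusted p = 0.00878) and was above mouse Ape1 by 0.30 ± 0.06 (adjusted p = 0.0115). Mouse Ape1 against vector control gave 0.03 ± 0.06 (adjusted p = 0.801). Lamc3, a gamma chain of fewer tissues, had group means between 5.40 and 5.45 and passed in no comparison.

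Lamb1 and Itgb8 share chromosome 12, and this chromosome shifted in the mouse Ape1 line. Of its 462 expressed genes (mean above every array median) 260, or 56.3%, rose in mouse Ape1 against vector control and 47 fell. Their median difference was 0.36 in mouse Ape1 against vector control, 0.07 in human APE1 against vector control and -0.24 in human APE1 against mouse Ape1. On the other chromosomes that carry subunits the median in mouse Ape1 against vector control lay between -0.18 and 0.07. In human APE1 against vector control those medians lay between -0.16 and 0.13, a range that holds the value of chromosome 12. In human APE1 against mouse Ape1 they lay between -0.19 and 0.22, so chromosome 12 stood out less there. With each array's chromosome median of expressed genes subtracted, an alternative chosen after these values were seen, Lamb1 was 0.17 above vector control in mouse Ape1 (adjusted p = 0.127) and Itgb8 0.06 (adjusted p = 0.666). The differences of human APE1 from mouse Ape1 were then -0.14 for Lamb1 (adjusted p = 0.223) and -0.11 for Itgb8 (adjusted p = 0.46). Neither gene passed on this scale, while Itga3, on chromosome 11, was 1.85 above vector control in mouse Ape1. With chromosome medians over all clusters subtracted, as planned, both genes still passed in limma. Mouse Ape1 minus vector control was then 0.50 for Lamb1 (adjusted p = 0.00514) and 0.40 for Itgb8 (adjusted p = 0.0398). Human APE1 minus mouse Ape1 was -0.43 for Lamb1 (adjusted p = 0.0115) and -0.41 for Itgb8 (adjusted p = 0.0427).

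**Figure D3:**
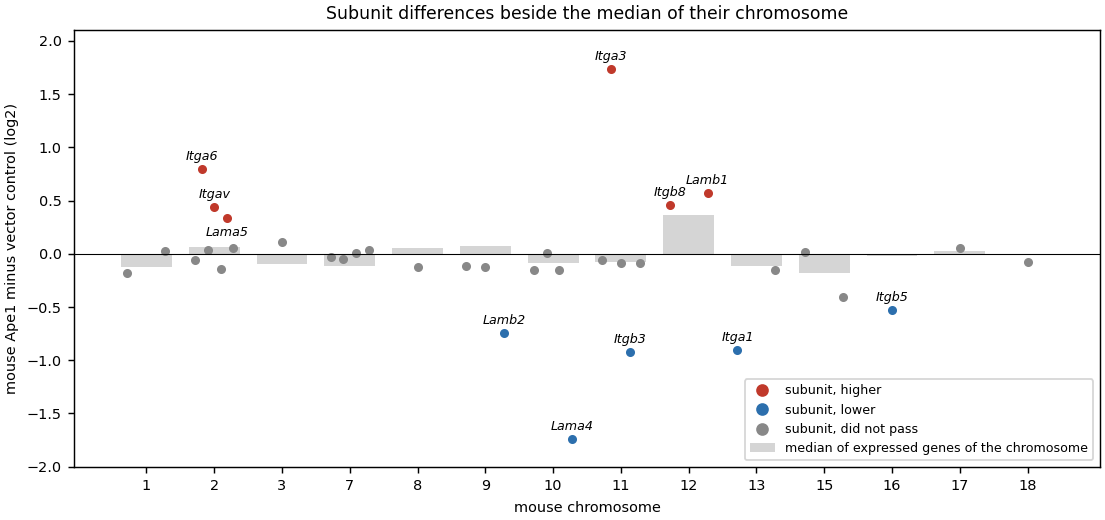
Difference of mouse Ape1 from vector control on the log2 scale (vertical axis) for the subunits reported, placed by its mouse chromosome (horizontal axis). Light bars give the median of all expressed genes of the chromosome, red and blue points are subunits that rose or fell at an adjusted p under 0.05, and grey points did not pass. Lamb1 and Itgb8 stand on chromosome 12, where the bar reaches 0.36, while Itga3 and Lama4 stand far from the bars of their chromosomes.

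By pattern the 14 genes fell into a few kinds. Itga1, Itgb3 and Lama4 were lower and Lama5 higher in both APE1 lines than in vector control, with no pass between the APE1 lines. Itga6, Itgav, Itgb8 and Lamb1 rose, and Itgb5 and Lamb2 fell, in mouse Ape1 against vector control, and each also passed between the APE1 lines. Itgb1 fell and Lamc1 rose in human APE1 against vector control, and both also passed between the APE1 lines. Itga3 passed in all 3 comparisons and Itga2b only between the APE1 lines. A pass in one line and not in the other was taken as a difference between lines only where human APE1 against mouse Ape1 passed.

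Proteins that work with integrins were read from 4 further lists, whose genes were mostly bright: 27 of 30 adaptors, 17 of 22 ligands, 18 of 23 basement membrane genes and 6 of 6 tetraspanins had means above every array median. Of the 13267 genes that bright, 27.1% were called in human APE1 against vector control, 33.5% in mouse Ape1 against vector control, 28.6% in human APE1 against mouse Ape1 and 44.6% in the 3-group test. Of 22 integrin ligands, 0 rose and 11 fell in human APE1 and 1 rose and 10 fell in mouse Ape1 against vector control, and 3 were higher and 8 lower in human APE1 than in mouse Ape1. The median differences were -0.24, -0.19 and 0.03, and the shares called were 50.0%, 50.0% and 50.0%. Spp1, encoding osteopontin, a ligand of Itgav receptors, averaged 7.76 in human APE1 and 10.13 in vector control (difference -2.37 ± 0.08, adjusted p = 3.08e-06), and human APE1 was below the 9.94 of mouse Ape1 (-2.18 ± 0.08, adjusted p = 5.24e-06). Tnc, tenascin-C, and Npnt, nephronectin, shared this pattern: human APE1 minus vector control was -1.34 and -1.28, and human APE1 minus mouse Ape1 was -1.54 and -1.42. Fbn1, the microfibril protein fibrillin-1, fell in mouse Ape1 instead, at 6.50 against 8.28 in vector control (-1.78 ± 0.07, adjusted p = 4.14e-06), and was higher in human APE1 than in mouse Ape1 by 1.67 ± 0.07. Tgfb3, a TGF-beta whose latent form binds integrins, fell in both APE1 lines (-1.57 in human APE1 and -1.10 in mouse Ape1). Fbln5, an elastic-fibre protein, likewise fell in both (-1.12 in human APE1 and -1.21 in mouse Ape1), as did Ctgf, a matricellular growth factor (-0.94 and -0.97). Tgfb3 and Fbln5 lie on chromosome 12, whose median moved the other way in mouse Ape1.

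Of 30 focal adhesion adaptors measured, 6 rose and 9 fell in human APE1 and 7 rose and 9 fell in mouse Ape1 against vector control, and 4 were higher and 11 lower in human APE1 than in mouse Ape1. The median differences were -0.02, -0.02 and -0.10. The shares called were 50.0%, 53.3% and 50.0%, against 27.1%, 33.5% and 28.6% of genes above every array median. Tgfb1i1, the paxillin relative Hic-5, averaged 7.33 in human APE1 and 9.10 in vector control (difference -1.77 ± 0.09, adjusted p = 2.09e-05), and 7.69 in mouse Ape1 (-1.41 ± 0.09, adjusted p = 4.9e-05). Tns1, tensin 1, which links integrin tails to actin, fell by 1.53 in human APE1 and by 1.21 in mouse Ape1 against vector control, whereas its relative Tns3 rose in human APE1 (0.97 ± 0.07) and by less in mouse Ape1 (0.39, adjusted p = 0.00593). Itgb1bp1, ICAP-1, which binds the tail of the Itgb1 protein and holds the receptor inactive, fell in human APE1 against vector control (-0.78 ± 0.08, adjusted p = 0.00073). Human APE1 was also below mouse Ape1 for Itgb1bp1 (-0.91 ± 0.08), which lies on chromosome 12 with its median of -0.24 in that comparison, and above it for the docking protein Nedd9 (0.74), for Tns3 (0.58) and for Lims1, encoding PINCH-1 (0.49). In mouse Ape1 against vector control Nedd9 fell by 0.69. Lims2, a second PINCH gene, fell in human APE1 (-0.38, adjusted p = 0.0361) and in mouse Ape1 (-0.70).

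Of 23 basement membrane partners and other laminin receptors, 4 rose and 3 fell in human APE1, 6 rose and 2 fell in mouse Ape1, and 3 were higher and 5 lower in human APE1 than in mouse Ape1. The median differences were -0.01, -0.01 and -0.02. The shares called were 30.4%, 34.8% and 34.8%, near the 27.1%, 33.5% and 28.6% of genes above every array median. Nid1, nidogen 1, which ties laminin to collagen IV, averaged 12.98 in human APE1 and 12.03 in vector control (difference 0.95 ± 0.07, adjusted p = 0.000103). It rose in mouse Ape1 too (0.34, adjusted p = 0.0115), where Lamc1, the chain that nidogen binds, did not pass. Col4a5, a collagen IV chain, rose in mouse Ape1 (1.20 ± 0.08) and by less in human APE1 (0.36 ± 0.08), and human APE1 was lower than mouse Ape1 (-0.83). The heparan sulfate carriers Sdc3 and Sdc1, syndecans, rose in mouse Ape1 (0.97 and 0.59), Sdc1 being on chromosome 12. Dag1, dystroglycan, a laminin receptor that is no integrin, fell in mouse Ape1 (-0.50 ± 0.05) and by less in human APE1 (-0.20, adjusted p = 0.0471). In human APE1 Col4a2 fell (-0.54) and Ntn4, netrin 4, which binds laminin, rose (0.50).

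Of 6 tetraspanins, membrane proteins that gather integrins, 1 rose and 3 fell in each APE1 line against vector control, and 1 was higher and 1 lower in human APE1 than in mouse Ape1. The median differences were -0.20, -0.19 and -0.09. The shares called were 66.7%, 66.7% and 33.3%, against 27.1%, 33.5% and 28.6% of genes above every array median. Cd9 fell in human APE1 (-0.64) and in mouse Ape1 (-0.67), Cd81 likewise (-0.38 and -0.33), and Cd63 rose (0.32 and 0.45). Cd151, the closest tetraspanin partner of the laminin receptors with Itga3 and Itga6, fell in human APE1 against vector control (-0.27 ± 0.06, adjusted p = 0.0244). Cd82 fell in mouse Ape1 against vector control (-0.47) and was higher in human APE1 than in mouse Ape1 (0.79).

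**Figure D4:**
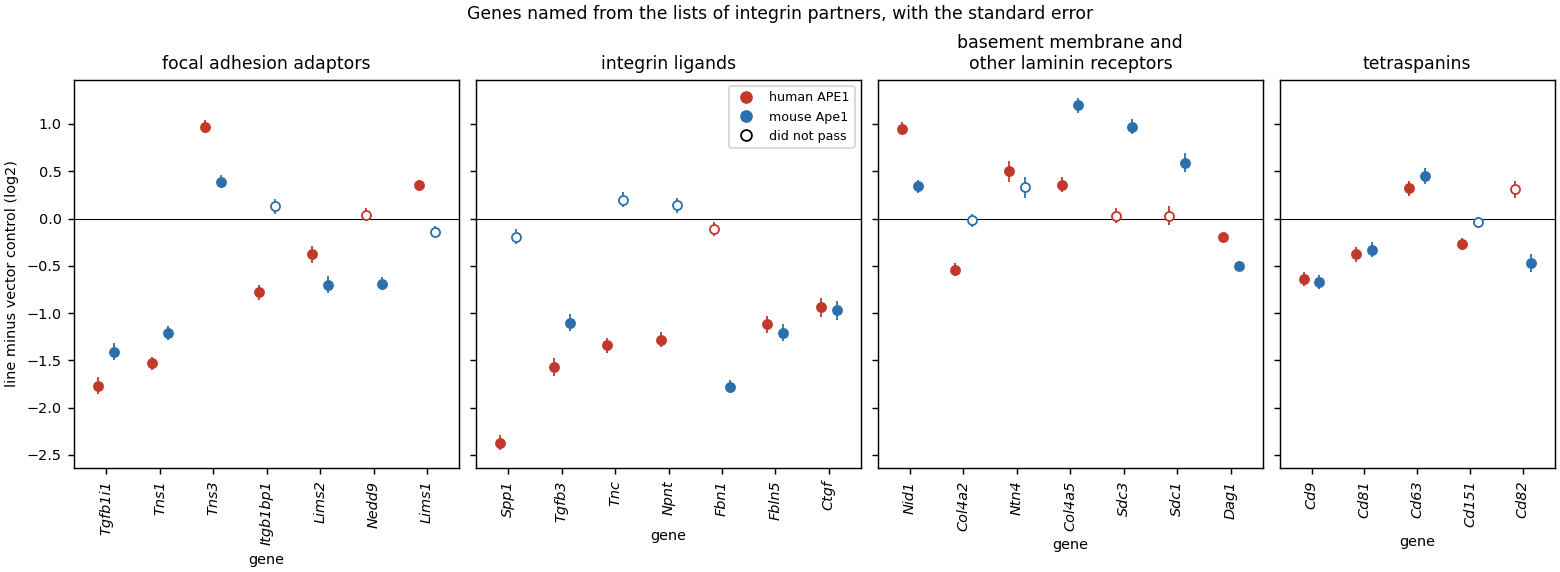
Difference of human APE1 (red) and of mouse Ape1 (blue) from vector control on the log2 scale, with standard errors (n = 3 arrays a group), for the genes named from the 4 partner lists. Open circles did not pass at an adjusted p of 0.05. Spp1, Tnc and Npnt are low in human APE1, Fbn1 is low in mouse Ape1, and Tgfb1i1, Tns1, Tgfb3 and Cd9 are low in both lines against the same vector control arrays.

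The authors' deposited table gives group means from another summary of the same arrays and a 3-group test. Of the 37 genes 14 were in the authors' deposited list of 7115 transcript clusters, and 13 of these also passed the 3-group test here. Itga5 was only in the authors' deposited list (adjusted p = 0.0284), and Itgb8 passed only here, with an unadjusted p of 0.0291 in the authors' deposited table. All 28 calls of the 3 comparisons had the same sign in the group means of the authors' deposited table. For Lama4 the authors' deposited table gives means of 4.50 in human APE1, 4.58 in mouse Ape1 and 6.50 in vector control, and its ratios are left out here because the gene is dim in both APE1 lines. For Itga3 the authors' deposited table gives 9.54, 10.77 and 8.95 for human APE1, mouse Ape1 and vector control, and a ratio of vector control over mouse Ape1 of 0.284.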

How the data were processed

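RNA from 9 dishes was read on Affymetrix arrays. Per the labels, the authors deposited log2 expression values made by RMA. RMA brings all arrays close to 1 distribution and so hides a change shared by most genes. The deposited values were not fully equal in distribution, with array medians of 5.64 to 5.75. The authors' deposited table holds, per the file headers, log2 group means, group ratios and unadjusted p-values. The submitters' processing notes name Partek. The sources used here name neither an array design nor a genome build.

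The deposited array values entered the fit unfiltered. The authors' table supplied the symbols, and 27 altered by a spreadsheet were restored from its annotation. Samples were grouped by title, and where nothing says otherwise the dishes may be technical replicates. limma 3.58.1 in R 4.3.3 fitted 3 group means over the 9 arrays (6 residual degrees of freedom, 2.07 from the prior), two-sided, with Benjamini-Hochberg adjustment over 41345 transcript clusters per comparison, and was tested on simulated data. The number of arrays limits the precision.

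Single values of some genes counted in the lists are not reported here. The genes, lists and markers were chosen with earlier results of these data known. Array values are given for genes that passed with a difference of at least 0.5 and for Itgb1, Lamb1 and Lamc1. From each partner list and comparison up to 4 genes with the largest difference among those that passed are named. Chromosomes came from the files and RefSeq. Alternatives were other scalings, a replicate block, fits on 6 arrays, array weights, a trend in the prior, a filter on dim clusters, the mean over a gene's clusters, and leaving out each array.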

Additional observations from a re-analysis of the deposited data

How the results depend on the processing

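Each gene and comparison was recomputed under 19 alternatives, 9 of which left out an array, except that the filter on dim clusters gave no value for some dim genes. Of 2061 values, 2006 stayed on their side of the threshold, 38 kept the direction of a call and no longer passed, and 17 newly passed. The number of calls that reversed was 0; signs of small differences that had not passed could change. Of the 28 calls, 18 held under all of them. Leaving out 1 array in turn, the number of transcript clusters called ranged from 3185 to 4776 in human APE1 against vector control (4859 with all arrays), from 4433 to 6772 in mouse Ape1 against vector control (6681) and from 3691 to 4892 in human APE1 against mouse Ape1 (5130). The counts that moved by over 1.5 times were 3185 without human APE1 replicate 1, 3203 without human APE1 replicate 2, and 4433 without mouse Ape1 replicate 1, and fewer arrays are fitted then. The subunits called ranged from 6 to 7, from 10 to 12, from 7 to 10 and, in the 3-group test, from 12 to 14.

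Array numbers did not pair the arrays, since same-numbered arrays of different groups correlated at only -0.075 to 0.104 in their deviations from group means. With the replicate number as a block, 6, 11 and 9 subunits were called in the 3 comparisons and 12 in the 3-group test; Lama5 in human APE1 against vector control (adjusted p = 0.0858) and Itga2b in human APE1 against mouse Ape1 (adjusted p = 0.0563) were no longer called.

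With chromosome medians of expressed genes subtracted, chosen after seeing the data, 7, 9 and 7 subunits were called and 12 in the 3-group test. On that scale Lamc1 in human APE1 against mouse Ape1 was 0.19 (adjusted p = 0.0939), and Itga5 there was called at -0.42 (adjusted p = 0.00516). With chromosome medians over all clusters, as planned, Lamb1 stayed called in mouse Ape1 at 0.50 (adjusted p = 0.00514) and Itgb8 at 0.40 (adjusted p = 0.0398). With quantile normalization run again, Itgb8 in mouse Ape1 was 0.33 (adjusted p = 0.081), and Itgb7 was called there (adjusted p = 0.0308). Signal limits the 19 genes that are not above every array median, whose differences are compressed, and the tests of Itga8 and Itgam, which share a value on 6 arrays.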

Other observations

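Genes whose symbols begin with Itgb but code for no beta subunit were left out of the 37 and were read separately. Itgb1bp2, encoding an Itgb1-binding protein expressed mainly in muscle, averaged 6.52 in human APE1, 6.87 in mouse Ape1 and 6.57 in vector control. It rose in mouse Ape1 against vector control (difference 0.31 ± 0.08, adjusted p = 0.0322) and was lower in human APE1 than in mouse Ape1 (-0.35 ± 0.08, adjusted p = 0.0211, limma). Itgb2l, Itgb3bp and Itgbl1 passed in no comparison, with group means of 4.08 to 4.15, 7.12 to 7.22 and 3.78 to 3.89.

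Markers of cell types that a fibroblast culture could also hold were mostly not called. Of 7 epithelial markers 0 passed in any comparison. In mouse Ape1 against vector control the endothelial marker Cdh5 rose (0.32) and the muscle marker Des fell (-0.88), each the only one of its list that passed there.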
